A study of Mus musculus with 11 samples.

Results

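The 42 interferon-stimulated genes described here are a list of genes that type I or type II interferon is known to raise in mouse cells, taken from the gene counts table by symbol. The table held 21684 genes. It paired 41 of the 42 by symbol, and Ddx58, which the table lists under its newer symbol Rigi, by its gene ID. After a filter on low counts 13332 genes were tested, among them 37 of the 42. Their levels were compared between cells of the mouse fibroblast line NIH/3T3 labelled WT (2 libraries) and lines of these cells labelled Xap5 KO, Nono KO and Sox5 KO (3 libraries each). From general knowledge, Fam50a is the mouse symbol of Xap5. Cells of all 4 groups were kept without serum for 24 h, and the labels name no interferon, virus or nucleic acid added to any of them. The labels name no clone or separate culture, so each knockout label was taken as 1 line, and p-values measure only the spread between these libraries, which may be technical.

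Interferons are secreted proteins that bind receptors linked to JAK kinases. Type I interferon acts on genes through the interferon-stimulated response element, which a complex that includes STAT2 and IRF9 binds, and interferon gamma acts through the gamma-activated site. IRF1 and other interferon regulatory factors bind elements of the first kind as well. Many of the genes turned on encode proteins that sense foreign RNA, block viral replication or present antigen, and fibroblasts keep some of them on at a low level without added interferon.

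RefSeq promoters (assembly GRCm38.p6) were found for 32 of the 42 members. The core GAAA, 2 bases of any kind, GAAA was searched on both strands in the 250 bases before each start. It was present in 11 of these 32 genes (34.4%), against 936 of 27025 genes in the whole promoter table (3.46%). The core of the gamma-activated site, TTC, 3 bases of any kind, GAA, was present in 6 of the 32 (18.8%) and in 8.13% of all genes. A match describes the letters only. Of the 16 members called with at least a 2-fold change in 1 or more lines, 11 had a promoter in the table. The 6 printed here held the first core, and the other 5, Oasl2, Samd9l, Ifi44, Xaf1 and Lgals3bp, held none in this window. Each stretch is the 160 bases before the start, 5′ to 3′ on the gene's strand, with the cores in capitals. Ifit1 (chr19:34640729-34640888, plus strand), Ifit3 (chr19:34583369-34583528, plus strand), Gbp2 (chr3:142620503-142620662, plus strand) and B2m (chr2:122147527-122147686, plus strand) hold 1 core, or 2 cores that do not overlap. In Isg15 (chr4:156200819-156200978, minus strand) 3 cores overlap. In Bst2 (chr8:71537473-71537632, minus strand) 2 cores overlap each other and a core of the gamma-activated site, so the capitals there cover both kinds.
Ifit1: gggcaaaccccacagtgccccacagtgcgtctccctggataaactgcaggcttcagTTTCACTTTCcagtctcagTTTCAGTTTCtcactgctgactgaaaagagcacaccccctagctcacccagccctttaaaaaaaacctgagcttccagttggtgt
Ifit3: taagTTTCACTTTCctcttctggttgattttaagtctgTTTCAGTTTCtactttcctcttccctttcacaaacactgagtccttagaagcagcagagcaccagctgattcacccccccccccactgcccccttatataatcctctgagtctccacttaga
Gbp2: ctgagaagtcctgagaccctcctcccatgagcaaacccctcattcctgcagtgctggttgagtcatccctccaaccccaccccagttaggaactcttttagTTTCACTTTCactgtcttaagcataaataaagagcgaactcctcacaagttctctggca
Isg15: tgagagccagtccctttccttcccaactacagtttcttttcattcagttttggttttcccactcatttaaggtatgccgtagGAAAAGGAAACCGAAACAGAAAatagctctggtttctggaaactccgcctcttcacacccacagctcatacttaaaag
Bst2: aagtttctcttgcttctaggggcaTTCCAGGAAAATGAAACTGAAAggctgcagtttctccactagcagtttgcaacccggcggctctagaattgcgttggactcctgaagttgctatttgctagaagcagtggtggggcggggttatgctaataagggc
B2m: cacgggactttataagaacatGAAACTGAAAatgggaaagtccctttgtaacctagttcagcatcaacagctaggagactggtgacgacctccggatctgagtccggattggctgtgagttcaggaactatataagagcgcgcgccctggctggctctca

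Read from these matches, the core begins 104 and 85 bases before the start in Ifit1, 156 and 122 bases before it in Ifit3, and 59 bases before it in Gbp2. It begins 139 bases before the start in B2m. The submitters' processing notes name another build, GRCm39, so these positions belong to the RefSeq table and not to the counts.

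Each library held 30205878 to 43498383 counts, and the biological coefficient of variation across all genes was 10.6%. Levels are given in CPM, the counts divided by library sizes that were scaled with the TMM method. As a check of the labels, Fam50a stood at 62.9 to 64.8 CPM in WT and at 7.49 to 7.91 CPM in Xap5 KO, and Nono at 351 to 357 CPM in WT and at 27.6 to 34.0 CPM in Nono KO. Sox5 stood at 45.9 to 49.7 CPM in WT and at 12.6 to 13.9 CPM in Sox5 KO. Sox5 RNA does not set the Sox5 KO line apart, since its level was 11.9 to 15 CPM in Xap5 KO and 7.01 to 8.75 CPM in Nono KO. All 7 fibroblast markers were detected in every group, with a summed level of 9500 to 9950 CPM in WT and Xap5 KO, 12500 to 13100 CPM in Sox5 KO and 25900 to 31400 CPM in Nono KO. The summed level of 8 myeloid markers was 2.75 to 2.95 CPM in WT, 4.12 to 5.50 CPM in Xap5 KO, 4.27 to 5.29 CPM in Sox5 KO and 9.48 to 14.0 CPM in Nono KO. In Nono KO, Ptprc, a pan-leukocyte marker, held 6.00, 7.31 and 6.68 CPM of that sum. Of the other myeloid markers, Tyrobp was at 0 counts in all 11 libraries, and Itgam and Adgre1 reached at most 2 and 6 counts. Cd68, Csf1r and Fcer1g had counts in every library. Lyz2 had 4 and 7 counts in WT and 3, 6 and 0 in Xap5 KO. It had 62, 95 and 64 counts in Nono KO and 37, 36 and 50 in Sox5 KO. Lymphocyte, endothelial and epithelial markers summed to at most 0.148, 2.79 and 0.497 CPM in any library. The part of these marker differences in the results on Nono KO was not tested. In bulk samples such as these, fewer cells with an RNA and less of it per cell cannot be told apart.

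The members did not all move in 1 direction in any line, although on TMM scaling most calls in Nono KO were rises. In Xap5 KO against WT, 11 members rose, 5 fell and 21 of the 37 tested did not pass the test, where 23.2% of all tested genes rose and 22.3% fell. In Nono KO, 13 members rose and 1 fell, beside 23.5% and 25.1% of all tested genes. In Sox5 KO, 11 members rose and 10 fell, shares near the 30.6% and 30.3% of all tested genes. Here a gene rose or fell where the quasi-likelihood test of edgeR gave a Benjamini-Hochberg adjusted p under 0.05 over all tested genes (edgeR below), and the 3 comparisons share the 2 WT libraries. The share of members that rose was thus 29.7%, 35.1% and 29.7% in the Xap5, Nono and Sox5 lines, and the share that fell was 13.5%, 2.7% and 27.0%. The tested members had median log2 fold changes of 0.11, 0.31 and 0.05 in that order, beside 0.00, -0.02 and -0.01 for all tested genes, and no median changed with genes at 0 counts set to their bound. With a change of at least 2-fold also required, 3 members were higher and 2 lower in Xap5 KO, beside 5.67% and 4.61% of all tested genes. In Nono KO 5 were higher and 0 lower, beside 6.5% and 4.68%, and in Sox5 KO 7 were higher and 4 lower, beside 8.3% and 8.87%.

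These counts depend on single libraries and on the scaling. Without WT replicate 2 the members that rose in Xap5 KO went from 11 to 7. The members that fell there went from 5 to 3 without WT replicate 1 or without Xap5 KO replicate 2, and to 9 without Xap5 KO replicate 3. The 1 member that fell in Nono KO was lost without WT replicate 2, and 2 fell without Nono KO replicate 3. On library totals alone the median of all genes in Nono KO moved from -0.02 to -0.18 and that of the members from 0.31 to 0.15, with 7 members called higher and 4 lower. The calls in Nono KO lost there were those of Stat2 (0.07), Rigi (0.11), Isg15 (1.15), Dtx3l (0.28), Eif2ak2 (0.15) and Ifi27 (0.34). In Sox5 KO the same setting moved the median of all genes from -0.01 to -0.12. The changes below are those on TMM scaling.

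**Figure D1:**
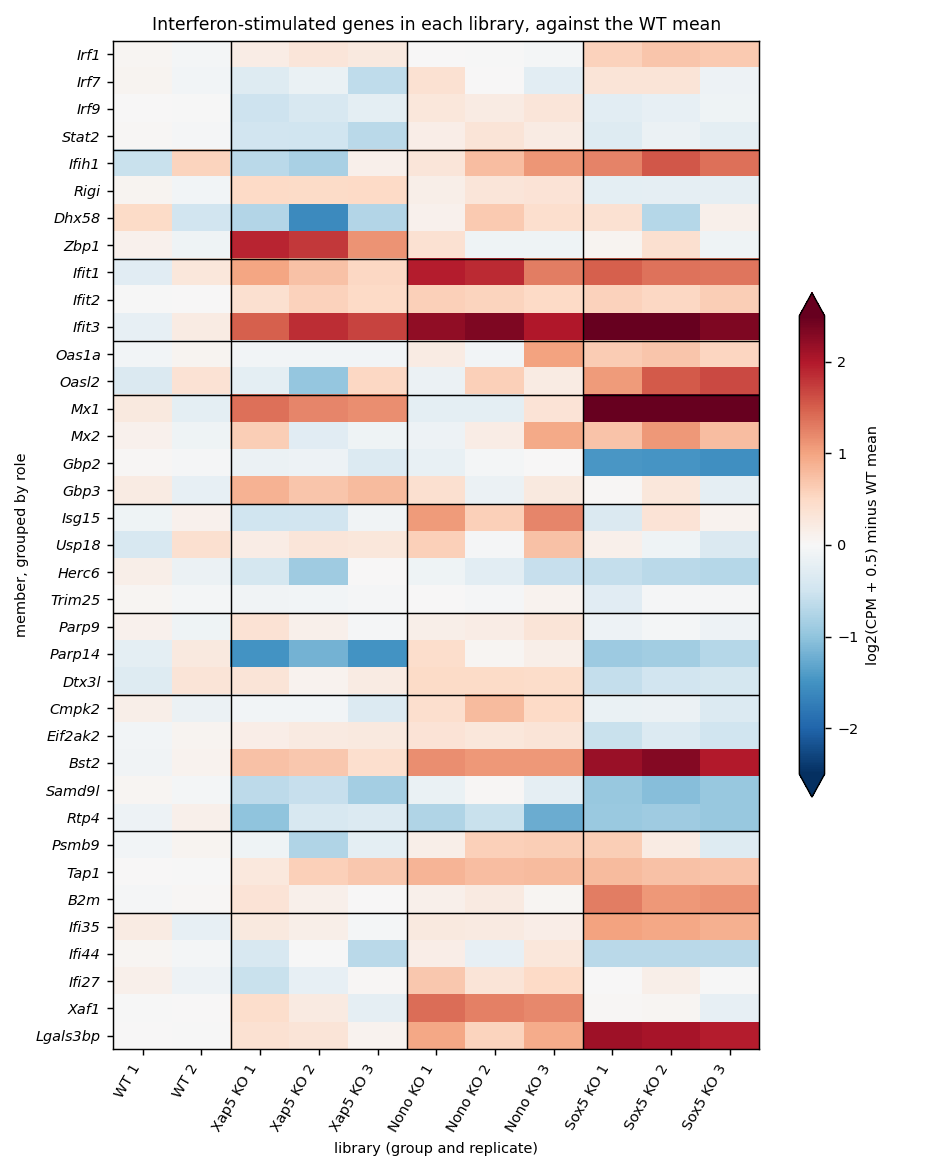
Level of the 37 tested members in each of the 11 libraries, as log2(CPM + 0.5) minus the WT mean, with members in rows by role and libraries in columns by group. Red is above the WT mean and blue below it. The IFIT genes and Bst2 are red across the knockout columns, while Gbp2 is dark blue in Sox5 KO and Parp14 in Xap5 KO.

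The lines were also compared with each other. These contrasts leave out WT, but the WT libraries still enter the filter, the scaling and the spread of the shared fit. Between Xap5 KO and Nono KO, 5 members were higher in Xap5 KO and 16 lower, beside 27.1% and 25.9% of all tested genes. Between Xap5 KO and Sox5 KO, 9 were higher in Xap5 KO and 14 lower, beside 31.1% and 30.4%. Between Nono KO and Sox5 KO, 14 were higher in Nono KO and 8 lower, beside 30.9% and 32.6%. As shares of the 37 tested members these were 13.5% and 43.2%, 24.3% and 37.8%, and 37.8% and 21.6%. The shares called in either direction, 56.8%, 62.2% and 59.5%, were near the 53%, 61.6% and 63.5% of all tested genes. At 2-fold or more, 2 were higher and 8 lower in Xap5 KO against Nono KO, beside 5.24% and 5.81% of all tested genes. At that size 3 were higher and 7 lower in Xap5 KO against Sox5 KO, beside 7.91% and 7.06%, and 6 were higher and 5 lower in Nono KO against Sox5 KO, beside 9.62% and 7.4%. The members that were higher in Xap5 KO than in Nono KO went from 5 to 3 without Xap5 KO replicate 1. The median log2 differences of all tested members in these comparisons were -0.53, -0.29 and 0.32.

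By length, B2m was far above the other members, at 577 CPM per kilobase of exon in WT. Ifi27 followed at 23.8, Gbp2 at 14.8, Ifit2 at 14.2, Irf1 at 14.0, Bst2 at 11.0 and Trim25 at 10.7 CPM per kilobase. The other members stood at 8.20 CPM per kilobase or less. The members took 0.109% to 0.1191% of all counts in WT, Xap5 KO and Nono KO libraries and 0.1688% to 0.1826% in Sox5 KO libraries. Without B2m the summed level of the members was 523.4 and 532.9 CPM in WT, 553.5 to 573.4 CPM in Xap5 KO, 658.3 to 679.9 CPM in Nono KO and 645.6 to 679.1 CPM in Sox5 KO. On TMM scaling, the 3 groups of knockout libraries each lay above both WT libraries by that sum. The TMM factors were 1.067 and 1.063 in WT and 1.005 to 1.045 in Xap5 KO, so the order of these groups depends on the scaling. The most abundant members weigh most in the sum. Lgals3bp, for example, had a mean of 22.1 CPM in WT and 93.1 CPM in Sox5 KO.

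Of the 4 transcription factors that carry the interferon response, Irf1 rose in Xap5 KO and Sox5 KO, Stat2 moved in all 3 comparisons, and Irf9 fell in Xap5 KO. Irf1, an activator induced by interferon gamma, stood at 54.1 and 57.5 CPM in WT, 63.3 to 68.5 CPM in Xap5 KO, 54.0 to 56.2 CPM in Nono KO and 82.8 to 90 CPM in Sox5 KO. Its log2 fold change was 0.64 in Sox5 KO (SE 0.0717, adjusted p = 1.15e-07) and 0.24 in Xap5 KO (SE 0.071, adjusted p = 0.00814), by edgeR. The second value was 0.19 without WT replicate 2, with an adjusted p of 0.122 by edgeR.

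Stat2, the STAT subunit particular to the type I complex, stood at 37.0 and 38.6 CPM in WT. It fell in Xap5 KO to 23.5 to 26.8 CPM, rose in Nono KO to 42.7 to 47.2 CPM, and fell in Sox5 KO to 30 to 34.1 CPM. No knockout library overlapped WT. Stat2 lies on chromosome 10, where the median log2 fold change of all 643 tested genes was -0.46 in Xap5 KO and -0.32 in Sox5 KO. With an offset for that median its own value went from -0.56 to -0.10 in Xap5 KO (adjusted p = 0.427) and from -0.24 to 0.08 in Sox5 KO (adjusted p = 0.45), by edgeR. The call in Nono KO (log2 fold change 0.24, adjusted p = 0.0358, edgeR) was lost without either WT replicate or without Nono KO replicate 2, at adjusted p-values of 0.0841, 0.171 and 0.12. That in Sox5 KO was lost without either WT replicate, without Sox5 KO replicate 1 or without Sox5 KO replicate 3, at edgeR adjusted p-values of 0.0556 to 0.133.

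Irf9, which gives the complex its DNA binding, stood at 9.83 and 10.0 CPM in WT and at 6.82 to 8.29 CPM in Xap5 KO, which is -0.40 as a log2 fold change (SE 0.148, adjusted p = 0.0307, edgeR). This call was lost without WT replicate 1 or 2 and without Xap5 KO replicate 1 or 2, at adjusted p-values of 0.109, 0.0898, 0.0852 and 0.0578 by edgeR. It was also lost with an offset for the chromosome median (-0.28, adjusted p = 0.14) and with only the 2 groups compared in the fit (adjusted p = 0.062), and with the offset Irf9 passed the test in Sox5 KO (-0.40, adjusted p = 0.0243), by edgeR. Its exons overlap Rnf31 on the same strand, so its counts are uncertain. Irf7, the factor that amplifies type I interferon, stood at 0.438 to 1.41 CPM over all libraries and passed the test in no line, with log2 fold changes of -0.59, 0.10 and 0.27 in the Xap5, Nono and Sox5 lines.

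Among the 4 sensors of foreign nucleic acid, Rigi had the firmest change and Zbp1 the largest. Rigi, the RNA helicase RIG-I, stood at 25.5 and 28.1 CPM in WT and at 38.2, 37.5 and 38.3 CPM in Xap5 KO. Its log2 fold change there was 0.50 (SE 0.091, adjusted p = 0.000119, edgeR). In Nono KO it stood at 29.8 to 34.1 CPM, a rise of 0.27 on the log2 scale (adjusted p = 0.0175, edgeR) that was lost without WT replicate 2 (0.21, adjusted p = 0.166) or Nono KO replicate 3 (0.23, adjusted p = 0.0576). In Sox5 KO it stood at 22.6 to 23 CPM and fell by 0.23 (adjusted p = 0.0317, edgeR). The median of the 819 tested genes on its chromosome 4 was -0.25 in Sox5 KO, and with an offset for it the value was 0.02. The call in Sox5 KO was also lost with limma voom (adjusted p = 0.0504) and without WT replicate 1 or without any 1 of the Sox5 KO replicates, at edgeR adjusted p-values of 0.0555 to 0.231.

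Zbp1, a sensor of Z-form nucleic acid that can start cell death, was close to absent outside Xap5 KO. It had 3 and 0 counts in WT, 59, 54 and 26 counts in Xap5 KO, 8, 0 and 0 counts in Nono KO and 2, 6 and 0 counts in Sox5 KO. In CPM the Xap5 KO libraries stood at 1.52, 1.31 and 0.67 and every other library at 0.203 or less. The ratio of Xap5 KO to WT was 32.9 with a 95% exact counting interval of 11.0 to 162, which covers counting error only, as do all intervals and floors here. Zbp1 rose in Xap5 KO with an adjusted p of 0.0114 by edgeR, and of 0.125 without WT replicate 2. It was also higher in Xap5 KO than in Nono KO (adjusted p = 0.00658) and than in Sox5 KO (adjusted p = 0.00978) by edgeR.

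Dhx58, the helicase LGP2 that tunes the other RNA helicases, stood at 1.91 and 0.726 CPM in WT, 0.54, 0.073 and 0.541 CPM in Xap5 KO, 1.36, 2.22 and 1.80 CPM in Nono KO and 1.73, 0.542 and 1.37 CPM in Sox5 KO. All 3 Xap5 KO libraries lay below both WT libraries, while the other lines overlapped WT. Its log2 fold change in Xap5 KO was -1.77 (SE 0.664, adjusted p = 0.0348, edgeR). It was -0.93 without WT replicate 1 (adjusted p = 0.412) and -1.29 without Xap5 KO replicate 2 (adjusted p = 0.108), and with only the 2 groups compared in the fit the adjusted p was 0.0838 by edgeR. Dhx58 was lower in Xap5 KO than in Nono KO by a log2 difference of -2.21 and than in Sox5 KO by one of -1.66 (adjusted p = 0.00475 and 0.0252, edgeR). The second of these calls was lost without Xap5 KO replicate 2 (-1.17) and without Sox5 KO replicate 1 (-1.32) or 3 (-1.57). An antisense gene overlaps its exons, so its counts are uncertain.

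Ifih1, the RNA helicase MDA5, ranged from 0 to 2.07 CPM. Its log2 fold changes of -1.38, 1.13 and 2.00 in the Xap5, Nono and Sox5 lines did not pass the test. The WT libraries differed, at 0.0992 and 0.794 CPM, and the value in Sox5 KO passed the test without WT replicate 2 (adjusted p = 0.0204, edgeR), without Xap5 KO replicate 2 (0.0395) and without Xap5 KO replicate 3 (0.0275). It also passed with DESeq2 (adjusted p = 0.0405), with limma voom (adjusted p = 0.00943) and with only the 2 groups compared in the edgeR fit (adjusted p = 0.00867). Without Xap5 KO replicate 3 that in Xap5 KO passed as well (adjusted p = 0.00786, edgeR). Between lines, the log2 difference of Xap5 KO minus Sox5 KO was -3.38 (adjusted p = 0.00353, edgeR). That of Xap5 KO minus Nono KO was -2.51 (adjusted p = 0.0257, edgeR), a call lost without Xap5 KO replicate 1 or 2 or without Nono KO replicate 3.

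The IFIT genes were the role in which every member rose in each line against the shared WT libraries. IFIT proteins bind foreign RNA and block its translation. Ifit3 stood at 2.58 and 3.56 CPM in WT, 9.52, 12.2 and 11.0 CPM in Xap5 KO, 16.0, 17.4 and 13.6 CPM in Nono KO and 20.8, 21.7 and 17.3 CPM in Sox5 KO. All 9 knockout libraries lay above both WT libraries, with the lowest at 9.52 CPM against a highest WT value of 3.56 CPM. Against WT the log2 changes were 1.82 (SE 0.18, adjusted p = 4.32e-08) in Xap5 KO, 2.35 (SE 0.182, adjusted p = 7.09e-10) in Nono KO and 2.69 (SE 0.184, adjusted p = 5.4e-11) in Sox5 KO, by edgeR. The log2 difference was -0.87 for Xap5 KO minus Sox5 KO (adjusted p = 1.99e-05) and -0.53 for Xap5 KO minus Nono KO (adjusted p = 0.0038), by edgeR. With an offset for the chromosome median the first was -0.55.

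Ifit1 stood at 1.02 and 1.75 CPM in WT, 3.17, 2.58 and 2.14 CPM in Xap5 KO, 6.69, 6.19 and 3.98 CPM in Nono KO and 4.70, 4.24 and 4.15 CPM in Sox5 KO. Again no knockout library overlapped WT, and the Nono KO and Sox5 KO libraries lay above those of Xap5 KO. Its log2 change against WT was 2.02 in Nono KO (SE 0.307, adjusted p = 1.3e-05), 1.65 in Sox5 KO (SE 0.306, adjusted p = 8.28e-05) and 0.92 in Xap5 KO (SE 0.303, adjusted p = 0.0173), by edgeR. The value in Xap5 KO was 0.58 without WT replicate 1 (adjusted p = 0.227) and 0.75 without Xap5 KO replicate 1 (adjusted p = 0.0664). Its call was also lost with limma voom (adjusted p = 0.0618) and with only the 2 groups compared in the edgeR fit (adjusted p = 0.0727). Ifit2 was the most abundant of the 3 per length and moved least, from 55.0 and 56.5 CPM in WT to between 74.0 and 86.2 CPM in the knockout libraries. Its log2 fold changes of 0.50, 0.56 and 0.58 each passed the test, and no difference between lines did (log2 differences of -0.06, -0.08 and -0.02, SE 0.062 to 0.0622). The 3 genes lie together on chromosome 19, where the median of all 482 tested genes was 0.39 in Sox5 KO, 0.06 in Xap5 KO and -0.11 in Nono KO. With an offset for it the values in Sox5 KO were 2.31 for Ifit3, 1.26 for Ifit1 and 0.19 for Ifit2 (adjusted p = 0.0233, edgeR), so the rise of Ifit2 was far smaller there. In the comparison of Nono KO with Sox5 KO the same offset took Ifit2 from -0.02 to 0.48 and Ifit3 from -0.34 to 0.15. A close copy, Ifit3b, lies beside Ifit3, so reads that fit both leave its level uncertain.

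**Figure D2:**
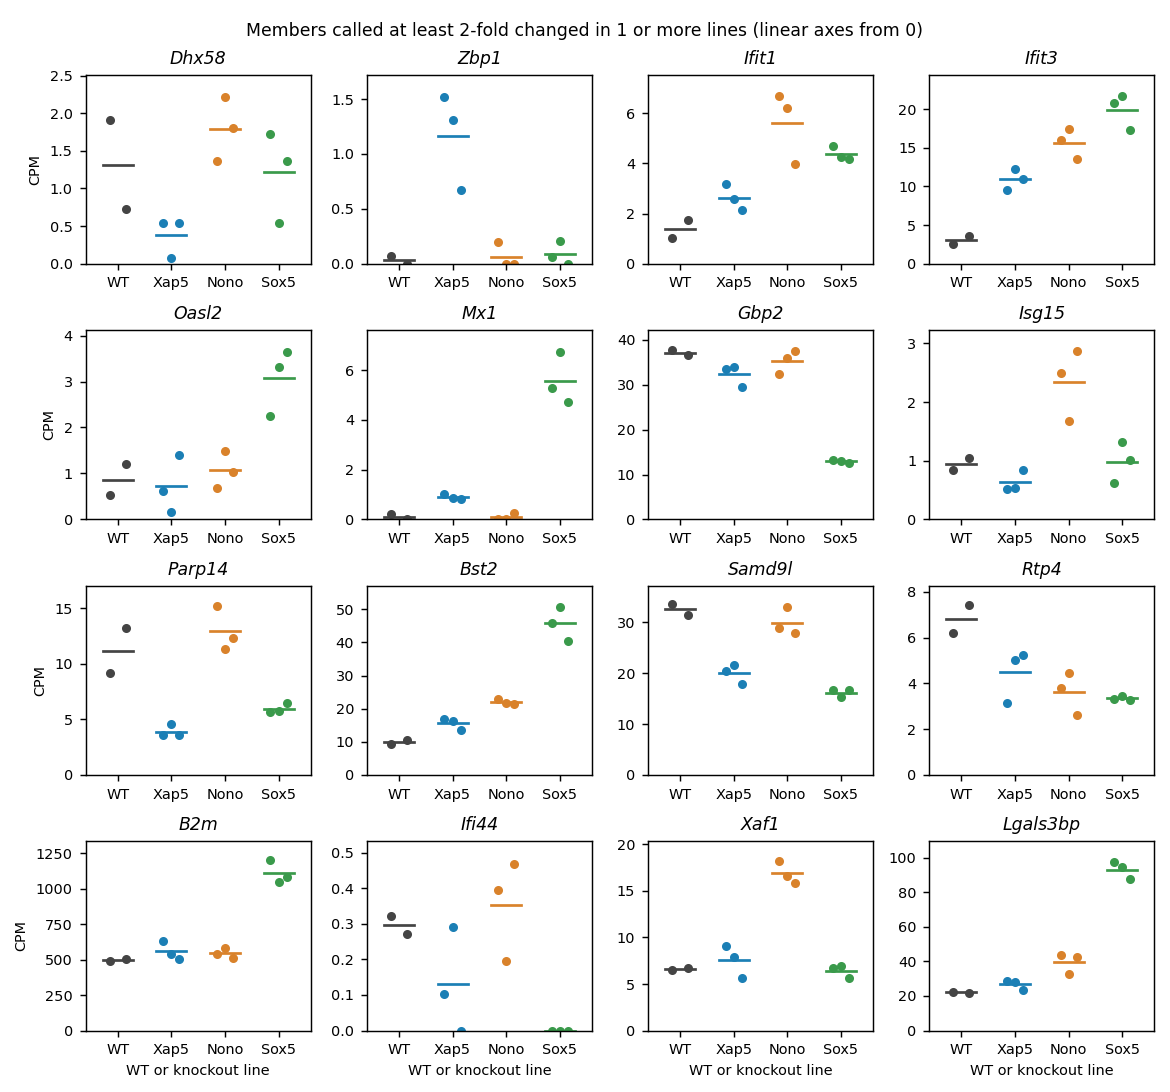
Level in CPM of the 16 members that were called with at least a 2-fold change in 1 or more lines, on linear axes from 0, 1 panel per gene. Points are libraries and bars are group means. Ifit3 and Bst2 rise from WT to every knockout group, while Gbp2, B2m and Lgals3bp stand apart in Sox5 KO, Xaf1 in Nono KO and Zbp1 in Xap5 KO.

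The oligoadenylate synthetases, which make the messenger that activates RNase L, were near the detection limit. Oas2, Oas3 and Oasl1 did not pass the filter, with at most 2, 13 and 5 counts in any library. Oas1a had 0 counts in all Xap5 KO libraries, 0 and 2 counts in WT, 4, 0 and 20 counts in Nono KO and 10, 10 and 8 counts in Sox5 KO. Its change passed the test in no line against WT, while it was at least 3.97-fold higher in Sox5 KO than in Xap5 KO, against a floor of 3 counts per library (adjusted p = 0.0112, edgeR). Oasl2, a synthetase-like protein, stood at 0.521 and 1.20 CPM in WT, 0.618, 0.17 and 1.39 CPM in Xap5 KO, 0.691, 1.49 and 1.02 CPM in Nono KO and 2.26, 3.32 and 3.64 CPM in Sox5 KO. Only the Sox5 KO libraries lay clear of the other libraries. Its log2 fold change there was 1.82 (SE 0.627, adjusted p = 0.0164, edgeR), and 1.34 without WT replicate 1 (adjusted p = 0.152) or 1.69 without Sox5 KO replicate 3 (adjusted p = 0.0561). Sox5 KO was above Nono KO and Xap5 KO as well, with adjusted p-values of 0.018 and 0.0027 by edgeR. The call against Nono KO was lost without Nono KO replicate 1 and without Sox5 KO replicate 2 or 3, at log2 differences of -1.46 to -1.29. Members of this family resemble each other closely, so low counts are uncertain between them.

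Of the 4 large GTPases, Mx1 rose in Sox5 KO and Xap5 KO, Gbp2 fell in Sox5 KO, Gbp3 rose in Xap5 KO, and none passed the test in Nono KO. Mx1, an antiviral dynamin-like GTPase that blocks viral nucleocapsids, had 8 and 0 counts in WT, which is 0.198 and 0 CPM. The Xap5 KO libraries held 1.03, 0.876 and 0.824 CPM, with 0, 0 and 0.249 CPM in Nono KO and 5.29, 6.71 and 4.72 CPM in Sox5 KO. All Sox5 KO libraries lay above all others, Xap5 KO came next, and Nono KO overlapped WT. The log2 fold change in Sox5 KO was 5.81 (SE 1.00, adjusted p = 0.000178) and that in Xap5 KO 3.20 (SE 0.988, adjusted p = 0.0174), by edgeR. With so few WT counts the size of both folds is loosely set. The value in Xap5 KO was 2.17 without WT replicate 2 (adjusted p = 0.0903, edgeR), and its call was lost with DESeq2 (adjusted p = 0.0888). Without Nono KO replicate 3, the only library of that line with counts, the value in Nono KO went from -0.29 to -4.91 (adjusted p = 0.0282, edgeR), a fit to groups at 0 counts. Between lines, Sox5 KO was above Xap5 KO and above Nono KO (adjusted p = 0.00349 and 2.78e-05), and Xap5 KO above Nono KO (adjusted p = 0.00439), by edgeR. With DESeq2 the difference between Sox5 KO and Xap5 KO did not pass the test (adjusted p = 0.0822). Mx2, its neighbour and close relative on chromosome 16, had 5 to 35 counts in a library, with log2 fold changes of 0.33, 0.94 and 1.74 that did not pass the test.

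Gbp2, a guanylate-binding protein that attacks the vacuoles of intracellular pathogens, stood at 37.8 and 36.6 CPM in WT, 33.6, 34.0 and 29.4 CPM in Xap5 KO, 32.4, 36.0 and 37.6 CPM in Nono KO and 13.3, 13.1 and 12.5 CPM in Sox5 KO. The Sox5 KO libraries lay far below the others and close to each other. The log2 fold change there was -1.52 (SE 0.098, adjusted p = 2.14e-11, edgeR), and it lay between -1.64 and -1.31 under every alternative run. Sox5 KO was also below Xap5 KO and Nono KO, which were above it by 1.32 and 1.45 on the log2 scale (adjusted p = 6.79e-11 and 1.21e-11, edgeR). Gbp3 lies on the same chromosome 3 and stood at 5.23 to 6.00 CPM in Xap5 KO and at 2.52 to 4.15 CPM in the other libraries. It rose in Xap5 KO by 0.88 (SE 0.261, adjusted p = 0.00927, edgeR), which became 0.66 without WT replicate 2 (adjusted p = 0.13). The median of the 649 tested genes of chromosome 3 was -0.22 in Sox5 KO and -0.01 in Xap5 KO.

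The ISG15 pathway, a ubiquitin-like tagging system, changed in few places. Isg15, the tag itself, stood at 0.844 and 1.04 CPM in WT, 0.515, 0.536 and 0.85 CPM in Xap5 KO, 2.49, 1.68 and 2.87 CPM in Nono KO and 0.618, 1.32 and 1.02 CPM in Sox5 KO. The Nono KO libraries lay above all others, which overlapped. The log2 fold change in Nono KO was 1.31 (SE 0.497, adjusted p = 0.0343, edgeR). This call was lost without WT replicate 1 or 2 and without Nono KO replicate 1 or 3, at values of 1.14 to 1.48 and adjusted p-values of 0.0794 to 0.151. Nono KO was above Sox5 KO by 1.25 (adjusted p = 0.017, edgeR), a call lost without Nono KO replicate 3 (adjusted p = 0.0749) or Sox5 KO replicate 1 (adjusted p = 0.0811) and with the chromosome offset (1.00, adjusted p = 0.0552), and Xap5 KO was below Nono KO by a difference of -1.88 (adjusted p = 0.00126, edgeR). Herc6, the mouse ligase for ISG15, fell in Sox5 KO from 5.19 and 4.15 CPM to between 2.65 and 2.91 CPM, by 0.75 on the log2 scale (adjusted p = 0.0254, edgeR). The median of the 629 tested genes on its chromosome 6 was -0.35 in Sox5 KO, and with an offset for it the value was -0.40 (adjusted p = 0.232, edgeR). The call was also lost without WT replicate 1 (-0.59, adjusted p = 0.171), Sox5 KO replicate 2 (adjusted p = 0.0571) or Sox5 KO replicate 3 (adjusted p = 0.0651). Herc6 in Xap5 KO, at -0.45, passed without Xap5 KO replicate 3 (-0.75, adjusted p = 0.0376, edgeR). Usp18, the protease that removes ISG15, and Trim25, the ubiquitin ligase that acts with RIG-I, passed the test in no line. Usp18 ranged from 0.298 to 1.24 CPM, and Trim25 from 50.7 to 65.1 CPM with log2 fold changes of -0.06, 0.02 and -0.11 (SE 0.0818 to 0.0821).

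Parp14, Parp9 and Dtx3l, neighbours on chromosome 16 that encode ADP-ribosylation enzymes and the ubiquitin ligase partner of PARP9, moved apart. Parp14 stood at 9.18 and 13.2 CPM in WT, 3.58, 4.55 and 3.58 CPM in Xap5 KO, 15.2, 11.3 and 12.3 CPM in Nono KO and 5.66, 5.76 and 6.47 CPM in Sox5 KO. The Xap5 KO and Sox5 KO libraries lay below both WT libraries and those of Nono KO overlapped WT. Its log2 fold change was -1.52 in Xap5 KO (SE 0.19, adjusted p = 1.23e-06) and -0.91 in Sox5 KO (SE 0.189, adjusted p = 0.000285), by edgeR. Dtx3l differed between the WT libraries, at 12.3 and 19.5 CPM, beside 16.5 to 19.5 CPM in Xap5 KO, 21.4 to 21.9 CPM in Nono KO and 10.2 to 11.3 CPM in Sox5 KO. Its rise in Nono KO (0.44, adjusted p = 0.0179) went to 0.16 without WT replicate 1 (adjusted p = 0.449) and its fall in Sox5 KO (-0.56, adjusted p = 0.00313) to -0.19 without WT replicate 2 (adjusted p = 0.33), by edgeR. The median of the 404 tested genes on chromosome 16 was 0.27 in Nono KO, and with an offset for it the value of Dtx3l there was 0.18 (adjusted p = 0.354, edgeR). Without WT replicate 2 it passed the test in Xap5 KO, at 0.54 (adjusted p = 0.0118, edgeR). The difference between Nono KO and Sox5 KO, a contrast that leaves out WT, was 1.00 (SE 0.136, adjusted p = 1.63e-06, edgeR), and 0.60 with the chromosome offset. Parp9 passed the test against WT in no line, with log2 fold changes of 0.16, 0.22 and -0.11. Exons of Parp9 and Dtx3l overlap on opposite strands, so their counts are uncertain between the 2 genes.

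The other antiviral effectors split into Bst2, which rose in each line, and Samd9l and Rtp4, which fell where they passed the test. Bst2, known as tetherin, holds budding virus on the cell surface. Its level was 9.35 and 10.6 CPM in WT, 16.9, 16.2 and 13.5 CPM in Xap5 KO, 23, 21.7 and 21.5 CPM in Nono KO and 45.9, 50.8 and 40.5 CPM in Sox5 KO. The 4 groups did not overlap and stood in the order WT, Xap5 KO, Nono KO, Sox5 KO. On the log2 scale it changed by 0.64 (SE 0.122, adjusted p = 0.000208), 1.15 (SE 0.123, adjusted p = 1.11e-07) and 2.20 (SE 0.126, adjusted p = 3.38e-12) in that order, by edgeR. Each step between lines passed the test too, with Xap5 KO below Nono KO by a difference of -0.51 (adjusted p = 0.00036) and Nono KO below Sox5 KO by one of -1.05 (adjusted p = 1.45e-08), by edgeR. Over all alternatives the values ranged from 0.54 to 0.99, from 0.98 to 1.27 and from 1.96 to 2.29. The median of the 715 tested genes on its chromosome 8 was -0.35, -0.13 and 0.24 in the Xap5, Nono and Sox5 lines. With an offset for it the value in Xap5 KO was 0.99, and the steps between lines were -0.29 and -0.69.

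Samd9l, a large protein that restrains viral translation and cell growth, stood at 33.5 and 31.5 CPM in WT, 20.4, 21.5 and 17.9 CPM in Xap5 KO, 28.8, 33.0 and 27.8 CPM in Nono KO and 16.6, 15.3 and 16.6 CPM in Sox5 KO. Xap5 KO and Sox5 KO lay below WT without overlap. Its log2 fold changes were -0.71 (SE 0.106, adjusted p = 1.34e-05) in Xap5 KO and -1.01 (SE 0.108, adjusted p = 5.63e-08) in Sox5 KO, by edgeR. It lies on chromosome 6, with medians of -0.25 and -0.35 over all tested genes there, and both calls held with an offset for them, at -0.46 and -0.66. Rtp4, a chaperone of G protein-coupled receptors that interferon induces, stood at 6.20 and 7.42 CPM in WT, 3.14, 5.04 and 5.26 CPM in Xap5 KO, 3.80, 4.46 and 2.60 CPM in Nono KO and 3.31, 3.46 and 3.29 CPM in Sox5 KO. All 9 knockout libraries lay below both WT libraries. It fell in Sox5 KO by 1.02 (adjusted p = 0.00162) and in Nono KO by 0.91 (adjusted p = 0.00509), while its value of -0.60 in Xap5 KO did not pass the test (adjusted p = 0.056), by edgeR. The call in Nono KO was lost without WT replicate 2 (-0.77, adjusted p = 0.0679), and Rtp4 in Xap5 KO passed without Xap5 KO replicate 3 (-0.74, adjusted p = 0.0342) and without Nono KO replicate 3 (adjusted p = 0.0378).

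Eif2ak2, the RNA-activated kinase PKR that halts translation, stood at 40.0 and 43.9 CPM in WT, 47.1 to 49.7 CPM in Xap5 KO, 50.8 to 53.0 CPM in Nono KO and 28.3 to 33.1 CPM in Sox5 KO. It fell in Sox5 KO by 0.47 (adjusted p = 6.61e-05) and rose in Nono KO by 0.31 (adjusted p = 0.00463), by edgeR. The value in Nono KO was 0.25 without WT replicate 1 (adjusted p = 0.0794). Its rise of 0.22 in Xap5 KO (adjusted p = 0.0439, edgeR) is close to the threshold and was lost without any 1 of the WT or Xap5 KO replicates and without Nono KO replicate 1, at values of 0.14 to 0.28. It was lost in 13 of the alternatives in all, and was 0.04 with an offset for the chromosome median (adjusted p = 0.77, edgeR). Rsad2, the antiviral enzyme viperin, had at most 2 counts in any library and was not tested. Its neighbour Cmpk2, a nucleotide kinase, stood at 0.584 CPM or less and passed the test against WT in no line. Nono KO held 14, 24 and 14 counts of Cmpk2 and Sox5 KO 2, 2 and 0 counts, a ratio of 10.3 with a 95% exact counting interval of 3.78 to 39.2 (adjusted p = 0.0251, edgeR). This call was lost without Nono KO replicate 2 and without Sox5 KO replicate 1 or 3, at adjusted p-values of 0.0629, 0.0527 and 0.0943, and with no filter on low counts (0.0784) or with the chromosome offset (0.0823).

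In antigen presentation, B2m rose in Sox5 KO and Tap1 rose in each line. B2m, the light chain of class I molecules, stood at 490 and 503 CPM in WT, 632, 540 and 501 CPM in Xap5 KO, 540, 583 and 510 CPM in Nono KO and 1200, 1050 and 1080 CPM in Sox5 KO. Its level in Sox5 KO was above all other libraries, while Xap5 KO overlapped WT. The log2 fold change in Sox5 KO was 1.16 (SE 0.0884, adjusted p = 2.36e-09), beside 0.17 in Xap5 KO (adjusted p = 0.124) and 0.13 in Nono KO (adjusted p = 0.215), by edgeR. Without Xap5 KO replicate 3 the value in Xap5 KO passed the test (0.23, adjusted p = 0.0269, edgeR). Sox5 KO was also above the other lines, with differences of -1.0 for Xap5 KO minus Sox5 KO and -1.03 for Nono KO minus Sox5 KO. Tap1, a subunit of the peptide transporter, stood at 11.6 and 11.8 CPM in WT, 14.2 to 18.8 CPM in Xap5 KO, 20.4 to 21.4 CPM in Nono KO and 19.5 to 20.5 CPM in Sox5 KO, with log2 fold changes of 0.54, 0.83 and 0.77. Psmb9, a subunit of the immunoproteasome, ranged from 0.511 to 2.1 CPM and passed the test against WT in no line, and Psmb8, another such subunit, had at most 11 counts and was not tested. Exons of Psmb9 and Tap1 overlap on opposite strands.

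The remaining interferon-induced members had their largest changes in Sox5 KO and Nono KO. Lgals3bp, a secreted glycoprotein that binds galectin-3, stood at 22.4 and 21.8 CPM in WT, 28.7, 27.8 and 23.5 CPM in Xap5 KO, 43.4, 32.7 and 42.7 CPM in Nono KO and 97.5, 94.3 and 87.4 CPM in Sox5 KO. The groups did not overlap, and their order was that of Bst2. Against WT the log2 changes were 2.07 in Sox5 KO (SE 0.118, adjusted p = 4.78e-12), 0.84 in Nono KO (SE 0.114, adjusted p = 3.38e-06) and 0.27 in Xap5 KO (SE 0.113, adjusted p = 0.0553), by edgeR. The last did not pass the test, and did without Xap5 KO replicate 3 (0.35, adjusted p = 0.017) and without Nono KO replicate 2 (adjusted p = 0.0213).

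Xaf1, a pro-apoptotic partner of XIAP, stood at 6.55 and 6.69 CPM in WT, 9.11, 7.86 and 5.62 CPM in Xap5 KO, 18.2, 16.6 and 15.9 CPM in Nono KO and 6.74, 6.91 and 5.68 CPM in Sox5 KO. Nono KO stood alone above the rest, by 1.35 on the log2 scale against WT (SE 0.185, adjusted p = 3.19e-06), by 1.39 against Sox5 KO (adjusted p = 1.88e-07) and with Xap5 KO below it by a difference of -1.17 (adjusted p = 2.86e-06), by edgeR. Ifi44 had 13 and 12 counts in WT, 4, 12 and 0 counts in Xap5 KO, 16, 8 and 17 counts in Nono KO and 0 counts in each Sox5 KO library. In CPM it stood at 0.323 and 0.272 in WT, so Sox5 KO was at least 3.08-fold lower, against the floor of 3 counts per library (adjusted p = 0.00983, edgeR). Ifi35 rose in Sox5 KO, from 11.8 and 8.71 CPM to between 19.3 and 20.8 CPM, by 0.97 (SE 0.146, adjusted p = 6.72e-06, edgeR). Without WT replicate 1 its value of 0.21 in Nono KO went to 0.45 (adjusted p = 0.0494, edgeR). Ifi27, a mitochondrial or nuclear membrane protein, rose in Nono KO from 37.9 and 31.9 CPM to 55.4, 43.5 and 49.4 CPM, by 0.50 (adjusted p = 0.00893, edgeR), and by 0.39 without WT replicate 2 (adjusted p = 0.0989). In Xap5 KO its value of -0.24 passed without Xap5 KO replicate 3 (-0.39, adjusted p = 0.0192, edgeR). In Sox5 KO its value was 0.05 on a chromosome 12 whose 447 tested genes had a median of -0.75, and with an offset for that median it was 0.80 (adjusted p = 0.000221, edgeR).

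**Figure D3:**
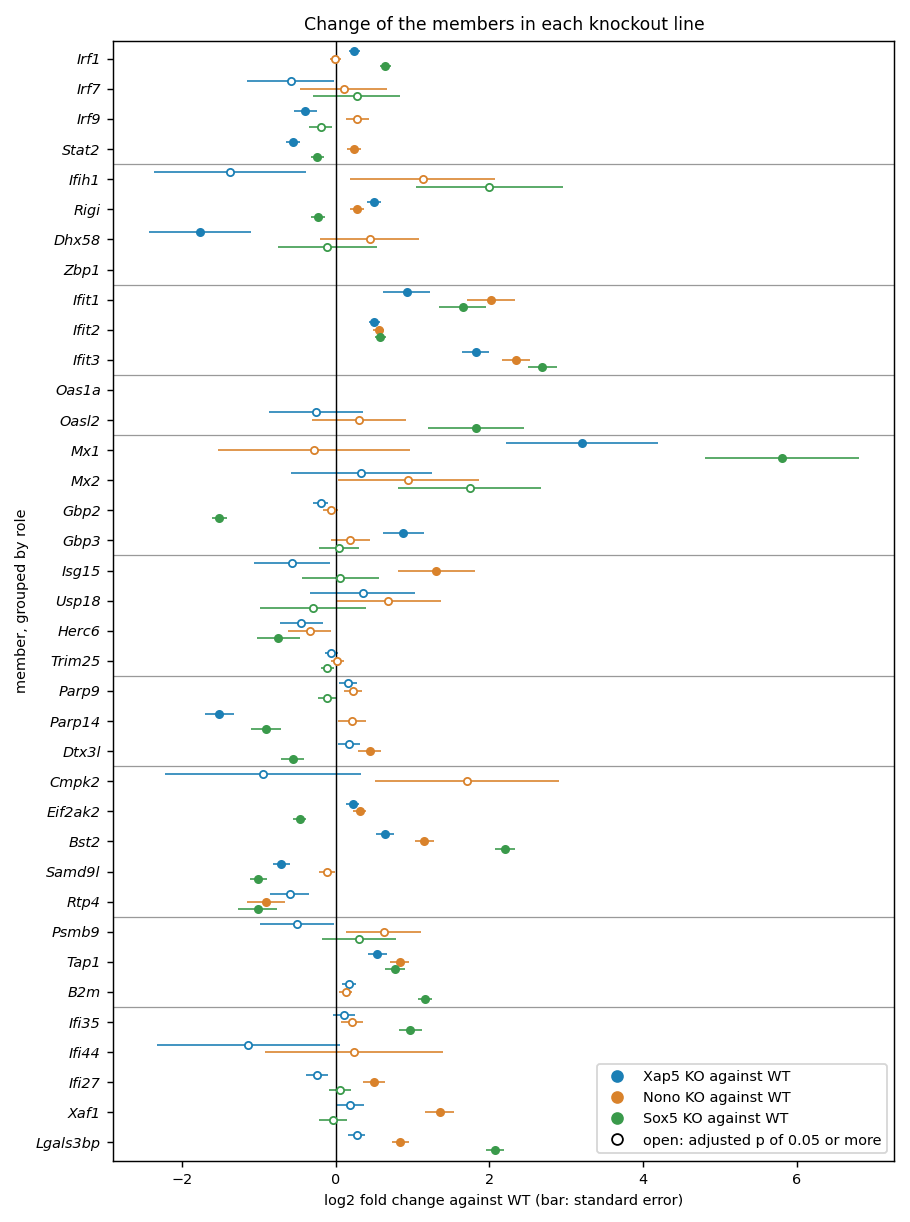
Log2 fold change of each tested member against WT, with bars of 1 standard error, for Xap5 KO (blue), Nono KO (orange) and Sox5 KO (green). Filled points have an adjusted p under 0.05 and open points do not, and comparisons with a group at or near 0 counts are left out. The 3 IFIT genes, Bst2 and Tap1 have filled points to the right of 0 in every line, and Samd9l and Parp14 have filled points to the left in Xap5 KO and Sox5 KO.

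The genes upstream of the members were read from lists of the same pathway. Of 19 ligands, receptors and JAK-STAT genes 10 were tested, of which 5 rose and 2 fell in Xap5 KO, 6 rose and 1 fell in Nono KO, and 4 rose and 5 fell in Sox5 KO. As shares these were 50% and 20%, 60% and 10%, and 40% and 50%, beside 23.2% and 22.3%, 23.5% and 25.1%, and 30.6% and 30.3% of all tested genes in the same lines. None of the interferon RNAs on this list was clearly detected, and other interferon genes were not looked up. Ifnb1, the interferon fibroblasts make first, had 4 counts in 1 Xap5 KO library, 6 counts in 1 Sox5 KO library and 0 elsewhere, and Ifna1, Ifna2, Ifna4, Ifng, Ifnl2 and Ifnl3 had 0 counts in all 11 libraries. A count of 0 allows up to 3 counts per library, so lower levels were not detectable at this depth.

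Ifnlr1, a chain of the interferon lambda receptor, had 0 and 18 counts in WT and 0 counts in every knockout library, so it was not tested (it is named here after its values were seen). Ifnar1, a chain of the type I receptor, stood at 83.0 and 78.9 CPM in WT, 104 to 109 CPM in Xap5 KO, 89.5 to 96.2 CPM in Nono KO and 64.8 to 69.4 CPM in Sox5 KO, and its log2 fold changes of 0.41, 0.19 and -0.28 each passed the test. The value in Nono KO was 0.16 without WT replicate 2 or without Nono KO replicate 3, with adjusted p-values of 0.145 and 0.0667 by edgeR, and -0.07 with the chromosome offset. With that offset the value in Sox5 KO was -0.15 (adjusted p = 0.06, edgeR). Ifnar2, the other chain, rose in each line, by 0.78, 0.48 and 0.34, the last of which was 0.27 without WT replicate 1 (adjusted p = 0.0641, edgeR). With the offset the value of Ifnar2 in Nono KO was 0.22 (adjusted p = 0.0586, edgeR). Ifngr1, the ligand-binding chain of the interferon gamma receptor, stood at 35.7 and 34.5 CPM in WT and at 39.6 to 47.4, 66.9 to 68.6 and 85.2 to 94.2 CPM in the Xap5, Nono and Sox5 lines. As log2 fold changes these were 0.33, 0.95 and 1.36 (adjusted p = 0.00227, 4.47e-09 and 1.13e-11, edgeR), and the first was 0.80 with the offset.

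Of 18 tested genes that induce interferon when nucleic acid is sensed, 4 rose and 2 fell in Xap5 KO, 2 rose and 7 fell in Nono KO, and 7 rose and 5 fell in Sox5 KO. The shares that rose were 22.2%, 11.1% and 38.9% in the Xap5, Nono and Sox5 lines, beside 23.2%, 23.5% and 30.6% of all tested genes. The shares that fell were 11.1%, 38.9% and 27.8%, beside 22.3%, 25.1% and 30.3%, so those in Xap5 KO that rose and in Sox5 KO that fell were near the shares of all genes. Irf5, a factor that turns on interferon and cytokine genes, fell from 7.79 and 11.3 CPM in WT to 1.11 to 3.99 CPM in Xap5 KO, 0.864 to 1.3 CPM in Nono KO and 2.04 to 2.55 CPM in Sox5 KO. On the log2 scale it changed by -2.03, -3.05 and -2.03 (adjusted p = 0.000182, 2.69e-06 and 0.000108, edgeR). Sting1, the adaptor of cytosolic DNA sensing, rose in Sox5 KO from 4.57 and 5.99 CPM to 15.1, 15.1 and 14.8 CPM, by 1.5 (SE 0.208, adjusted p = 2.12e-06, edgeR). Traf3, an adaptor on the way to the kinase TBK1, fell in Sox5 KO by 1.16 and in Nono KO by 0.43. The median of the 447 tested genes on its chromosome 12 was -0.75 in Sox5 KO, and with an offset for it the value there was -0.41.

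The brakes list holds genes that limit interferon signalling or clear the cell's own nucleic acids. Of 15 tested, 4 rose and 4 fell in Xap5 KO, 4 rose and 7 fell in Nono KO, and 7 rose and 3 fell in Sox5 KO. The shares that rose were 26.7%, 26.7% and 46.7%, and those that fell 26.7%, 46.7% and 20%. In Xap5 KO both were close to the 23.2% and 22.3% of all tested genes. The shares of all tested genes that rose and fell were 23.5% and 25.1% in Nono KO and 30.6% and 30.3% in Sox5 KO. Socs1, the inhibitor of JAK kinases and itself induced by interferon, fell in each line, from 34.2 and 33.3 CPM in WT to 16.1 to 18.5, 20 to 25 and 9.52 to 12.3 CPM. Its log2 fold changes were -0.97, -0.64 and -1.57 (adjusted p = 2.15e-06, 0.00025 and 1.19e-09, edgeR). Trex1, the exonuclease that clears cytosolic DNA, rose in Nono KO by 1.79 (adjusted p = 0.00904) and in Sox5 KO by 2.01 (adjusted p = 0.00345, edgeR), from WT libraries that differed, at 0.521 and 2 CPM. In Nono KO the value was 1.14 without WT replicate 1 (adjusted p = 0.051, edgeR). In Xap5 KO Trex1 passed the test without WT replicate 2 (2.39, adjusted p = 0.00171, edgeR) or without Xap5 KO replicate 2 (1.46, adjusted p = 0.00778). Samhd1, a dNTP hydrolase that restricts retroviruses, rose in each line, by 1.04, 0.87 and 0.40. Nlrc3, a negative regulator of STING, rose by 0.47, 0.83 and 1.13, and Rnaseh2b, a subunit of RNase H2, rose in Xap5 KO by 0.69 and in Sox5 KO by 1.03. The call of Nlrc3 in Xap5 KO was lost without WT replicate 1 (0.26), Xap5 KO replicate 2 (0.32) or 3 (0.42), or Sox5 KO replicate 3, and with the chromosome offset (0.38), library totals alone, limma voom or only the 2 groups compared. That of Rnaseh2b in Xap5 KO was lost without WT replicate 1 (0.33), its value in Sox5 KO was 0.68 there, and its value of 0.37 in Nono KO passed without WT replicate 2 (0.84).

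A longer list of other interferon-stimulated genes, 71 of 79 tested, had more higher than lower calls in each line against WT. In Xap5 KO 25 rose and 11 fell (35.2% and 15.5%), beside 23.2% and 22.3% of all tested genes. In Nono KO 29 rose and 8 fell (40.8% and 11.3%), beside 23.5% and 25.1%. In Sox5 KO 34 rose and 10 fell (47.9% and 14.1%), beside 30.6% and 30.3%. The median log2 fold changes were 0.28, 0.38 and 0.59, beside 0.00, -0.02 and -0.01 for all tested genes. Ifi205, a member of the DNA-binding IFI200 family, had 0 counts in WT and 32 to 88 counts in each knockout library, at least 14.8-fold, 26.5-fold and 15.4-fold higher in the Xap5, Nono and Sox5 lines against the floor of 3 counts per library. Close copies of Ifi205 in this family make its counts uncertain. Ifi27l2a stood at 0.198 and 0 CPM in WT, 0 to 0.232 CPM in Xap5 KO, 4.09 to 6.55 CPM in Nono KO and 4.02 to 5.18 CPM in Sox5 KO, so it rose in the last 2 lines (log2 fold changes 5.76 and 5.55). Without WT replicate 1, the only WT library with counts of it, Ifi27l2a passed the test in Xap5 KO as well (adjusted p = 0.0469, edgeR). Sp110, a nuclear body protein, rose in each line, most in Nono KO, from 0.198 and 0.204 CPM to 4.86, 3.21 and 3.84 CPM. Its call in Xap5 KO was lost without either WT replicate, Xap5 KO replicate 2 (0.87), or Nono KO replicate 1 or 3, and with limma voom, a replicate block or only the 2 groups compared. Gbp4, another guanylate-binding protein, rose in Xap5 KO (2.07 to 3.17 CPM) and Sox5 KO (2.95 to 3.16 CPM) from 0 and 0.454 CPM in WT. It passed the test in Nono KO only without WT replicate 2 (adjusted p = 0.000272, edgeR), which leaves a WT library at 0 counts.

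Parp12, an antiviral ADP-ribosyltransferase, went the other way. It fell from 33.6 and 29.5 CPM in WT to 2.26, 2.87 and 2.89 CPM in Xap5 KO, 18.3 to 19.6 CPM in Nono KO and 16.4 to 18.5 CPM in Sox5 KO. Its log2 fold change in Xap5 KO was -3.56 (SE 0.134, adjusted p = 7.76e-15, edgeR), beside -0.73 and -0.86 in the other lines, the last of which was -0.51 with the chromosome offset. Nlrc5, the transactivator of class I genes, had 12 and 34 counts in WT and 0 counts in all 3 Nono KO libraries, at least 6.98-fold lower. It rose in Sox5 KO by 1.93 (adjusted p = 0.0157, edgeR), and by 1.40 without WT replicate 1 (adjusted p = 0.138, edgeR). The class I heavy chains H2-K1 and H2-D1, chosen after their values were seen because they pair with B2m, rose in each line. H2-K1 had log2 fold changes of 0.25, 0.61 and 1.20, and H2-D1 of 0.53, 0.53 and 1.13, in the Xap5, Nono and Sox5 lines. Class I genes resemble each other closely, so reads may be divided among them.

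**Figure D4:**
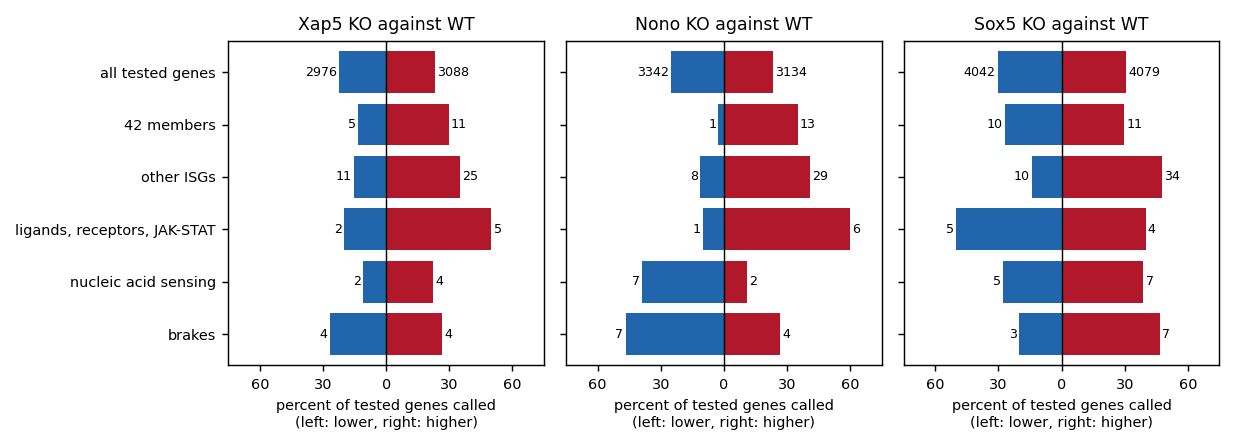
Percent of tested genes called higher (red, to the right) and lower (blue, to the left) against WT in each line, for all tested genes, the 42 members and 4 lists of the same pathway. Numbers at the bars are gene counts. The members and the other interferon-stimulated genes have fewer lower than higher calls in Xap5 KO and Nono KO. In Sox5 KO the members, at 11 and 10, are near the shares of all tested genes.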

How the data were processed

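RNA was sequenced in 11 libraries, made with NEBNext Ultra II reagents from TRIzol-extracted total RNA (per the labels' protocols). The values are estimated counts per gene that the authors deposited as whole numbers in 1 table, taken as rounded estimates since a 2 was found 3302 times but a 1 only 857 times. The submitters' processing notes name HISAT2 2.1.0, StringTie 1.3.3b, DESeq2 1.12.4 and the build GRCm39 (mm39), with no role or order; annotation, counting and strand are not given in the sources used here. Without known strand, reads of overlapping genes cannot be told apart.

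The deposited counts of all 11 libraries were fitted together with edgeR 4.0.16 (R 4.3.3): TMM scaling, filterByExpr (count of 10, total of 15), 1 mean per group, robust quasi-likelihood tests, and Benjamini-Hochberg adjustment over all 13332 tested genes, with calls under 0.05. A group with at most 3 counts in every library counts as at the floor. The fit was also run on counts simulated from its own estimates, with known changes in 1 line only. That run checked the code, and its setting differs from these data, where far more genes were called. Libraries held 30205878 to 43498383 counts, and members with few counts have the widest errors. Exon lengths, chromosomes and overlaps came from GENCODE M21 (GRCm38), matched by gene ID with 93 IDs unmatched.

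The members, the lists and the tests were chosen with earlier results of these data known. Members called with a log2 fold change of at least 1 in size in any line are given in every library; each pathway list gives at most its 6 largest such genes, plus Ifnb1, Ifnar1 and Ifnar2; another gene that this rule names is not reported here. Alternatives changed the scaling (RLE factors, library totals), the filter (none, a mean count of 50), the tool (DESeq2 1.42.0, limma voom 3.58.1), the samples in the fit, a replicate block and a chromosome offset, and left out each library.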

Additional observations from a re-analysis of the deposited data

Results flagged for a closer look

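The 4 members Stat2, Rigi, Dtx3l and Eif2ak2 were picked from these same tests (edgeR, Benjamini-Hochberg adjustment). They passed the test against WT in opposite directions in different lines, and the difference between those lines passed it too. With opposite calls in 1 shared fit the second condition is nearly always met, so it adds no separate support. Each opposite pair held a call that some of the 20 alternatives removed. Stat2 lost its rise in Nono KO in 4 of them, its fall in Sox5 KO in 6 and its Xap5 KO fall in 1. Rigi lost its Sox5 KO fall in 6 and its Nono KO rise in 3, and Dtx3l lost these in 1 and 3. Eif2ak2 lost its Xap5 KO rise in 13 and its Nono KO rise in 2. The Xap5 KO rise of Rigi and the Sox5 KO fall of Eif2ak2 were never lost. The values below are log2 differences between lines, in contrasts that leave out WT, although the WT libraries are part of the shared fit. Stat2 was lower in Xap5 KO than in Nono KO by a difference of -0.80 (adjusted p = 4.92e-08, edgeR) and higher in Nono KO than in Sox5 KO by 0.47 (adjusted p = 3.11e-05, edgeR). Rigi was higher than in Sox5 KO by 0.74 in Xap5 KO (adjusted p = 1.04e-07, edgeR) and by 0.50 in Nono KO (adjusted p = 1.59e-05, edgeR). Dtx3l was higher in Nono KO than in Sox5 KO by 1.00 (adjusted p = 1.63e-06, edgeR). Eif2ak2 was higher than in Sox5 KO by 0.68 in Xap5 KO (adjusted p = 1.25e-07, edgeR) and by 0.78 in Nono KO (adjusted p = 1.58e-08, edgeR). With an offset for the chromosome medians these differences were smaller: -0.47 and 0.29 for Stat2, 0.44 and 0.25 for Rigi and 0.60 for Dtx3l, and 0.53 for Eif2ak2 in Xap5 KO against Sox5 KO. That of Eif2ak2 in Nono KO against Sox5 KO was 0.78 as before.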

How the results depend on the processing

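Of 51 changes of members called against WT, 30 held under all 20 alternatives and 21 were lost in 1 or more, most often without a WT library. Calls were lost in 12 cases without WT replicate 1 and in 13 without WT replicate 2. Each member in each line against WT was counted once per alternative. A call was lost with its sign kept in 71 cases and gained in 33. In 2 more a call was lost and the value changed sign, and no call against WT turned into a call in the opposite direction. Of 66 called differences of members between lines 47 held throughout. Every change of sign in a value called in either fit came with the chromosome offset. Against WT, Stat2 went to 0.08 and Rigi to 0.02 in Sox5 KO, and Ifnar1 to -0.07 in Nono KO. Between lines, Ifit2 went to 0.24 in Xap5 KO against Sox5 KO. In Nono KO against Sox5 KO, Ifit2 went to 0.48, Ifit3 to 0.15, Parp9 to -0.07 and Ifi27 to -0.29. Both Ifit2 values were called only with the offset, and the others only without it. With a change of at least 2-fold required, members higher and lower were 3 and 2 in Xap5 KO, 5 and 0 in Nono KO and 7 and 4 in Sox5 KO against WT. They were 2 and 8 for Xap5 KO against Nono KO, 3 and 7 for Xap5 KO against Sox5 KO, and 6 and 5 for Nono KO against Sox5 KO. On library totals alone, 7 members were higher and 4 lower in Nono KO against WT; with only the 2 groups compared in the fit, 3 were lower in Xap5 KO against WT. Leaving out 1 library at a time, members higher and lower ranged from 7 to 12 and 3 to 9 in Xap5 KO, from 9 to 13 and 0 to 2 in Nono KO, and from 10 to 12 and 7 to 10 in Sox5 KO against WT. They ranged from 3 to 5 and 13 to 17 for Xap5 KO against Nono KO, from 6 to 10 and 12 to 15 for Xap5 KO against Sox5 KO, and from 12 to 14 and 6 to 8 for Nono KO against Sox5 KO. Same-numbered libraries correlated weakly, with 0 of 15 such pairs above 0.1 (-0.033 to 0.062, median 0.019, beside a median of -0.001 for other pairs). Still, 7 of 11 libraries correlated best with their own number. This check cannot show whether a weak pairing exists. With a replicate block 11 members were higher and 5 lower in Xap5 KO, 12 and 1 in Nono KO and 11 and 9 in Sox5 KO against WT; Mx1 and Eif2ak2 in Xap5 KO, Isg15 in Nono KO and Stat2 in Sox5 KO lost their calls (adjusted p = 0.0515, 0.0518, 0.0794 and 0.0544, edgeR), and B2m and Lgals3bp in Xap5 KO gained them. With DESeq2, Mx1 in Xap5 KO lost its call (adjusted p = 0.0888). Where a cause is not shown by the alternative itself, the cause was not tested.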
